A study of Arabidopsis thaliana with 3 samples.

Results

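Brassinosteroids are the steroid hormones that drive cell elongation in plants. They are made from plant sterols by a chain of reductase and cytochrome P450 steps, and other P450 enzymes inactivate them, so the balance of the 2 kinds of enzyme sets the hormone level. SOB3 is an AT-hook protein that represses growth, and its name comes from a screen for suppressors of a phytochrome B mutant, the same kind of screen that gave the inactivation genes BAS1 and SOB7 their names. The data show where a SOB3-GFP fusion lay on 10 genes of this balance, chosen by locus: the 8 synthesis genes CPD, DWF4, BR6OX1, BR6OX2, ROT3, CYP90D1, DET2 and DWF1, and the 2 inactivation genes BAS1 and CYP72C1 (SOB7). These are 10 of the 27444 protein-coding genes on chromosomes 1 to 5.

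The chromatin came from whole Arabidopsis thaliana plants of 14 days, ecotype Columbia (Col-0), grown under 16 h of light and 8 h of darkness a day at 22 °C and harvested at ZT4, that is 4 h into the light period. All plants carried ProSOB3::SOB3-GFP, a fusion driven by the SOB3 promoter, in the sob3-4 background. An antibody against GFP pulled down the fusion in 2 ChIP replicates, beside 1 input library made without antibody. The labels name whole plants and the series' design text juvenile rosettes, peak lists give no marker expression to check this against, and no plants without the fusion were analysed. Nothing states that the replicates came from separate plantings, so their spread may be technical.

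A gene was called when a peak had its summit inside the gene span or in the 1000 bp on each side. Each peak has the authors' fold enrichment, the ratio of ChIP signal to control at the summit, and a −log10 q. The replicate 1 list held 9980 peaks and the replicate 2 list 4788, with median folds of 2.58 and 2.47. Of the peaks, 38.5% in replicate 1 and 81.9% in replicate 2 overlapped a peak of the other list. The lists carry no read totals, so the depth behind a fold is not known.

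Of the 10 genes, 3 had a peak in both lists, and all 3 were synthesis genes: CPD, BR6OX2 and ROT3. Over all protein-coding genes the share called in both lists was 11.7%. The replicate 1 list called 8 genes (7 of 8 synthesis genes and 1 of 2 inactivation genes), where 28.7% of all genes were called. The replicate 2 list called 3, the synthesis genes CPD, BR6OX2 and ROT3, where 13.7% of all genes were called. So 5 of the 10 were called in replicate 1 but not in replicate 2. Over all genes 7888 were called in replicate 1 and 3213 in both lists, so most replicate 1 calls lacked a replicate 2 call there too. BR6OX1 and CYP72C1 had no peak in either list. No inactivation gene had a peak in both lists, but with 2 such genes the difference between the kinds was not tested.

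**Figure D1:**
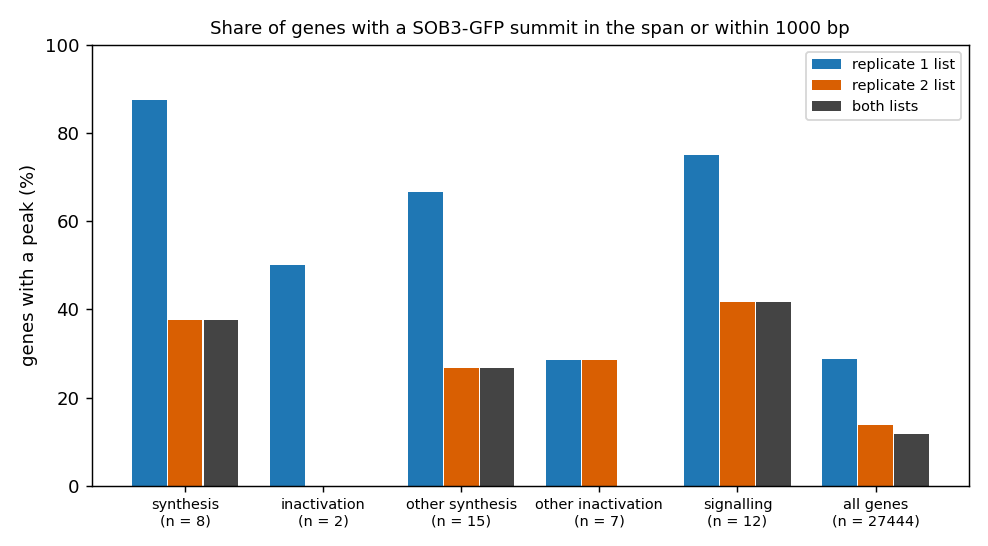
Bars give the percentage of genes in each group with a SOB3-GFP summit in the span or within 1000 bp, for the replicate 1 list, the replicate 2 list and both lists, with the number of genes under each group. Synthesis genes stand at 7 of 8 in replicate 1 and 3 of 8 in both lists, inactivation genes at 1 of 2 and 0 of 2, and all genes at 28.7% and 11.7%.

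CPD (AT5G05690, on chromosome 5) encodes the P450 enzyme CYP90A1, whose loss gives a dwarf that looks light-grown in darkness. It carried the strongest pair of peaks of the synthesis genes, at 1705977 to 1706314 in replicate 1 (TAIR10) with a fold of 3.68 and at 1706023 to 1706315 in replicate 2 with a fold of 2.75. The −log10 q values were 16.4 and 7.19. The summits lay 4 bp apart, inside the gene span, and 793 bp and 789 bp from its nearer edge. These peaks were among the strongest 11.4% and 29.4% of their lists by fold. Replicate 1 had a further pair of peaks inside the span of CPD, with folds of 2.14 and 2.44, and neither overlapped a replicate 2 peak.

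BR6OX2 (AT3G30180, on chromosome 3) encodes a C-6 oxidase that also makes brassinolide, the most active brassinosteroid, from castasterone. Its peaks at 11812420 to 11812828 in replicate 1 and 11812525 to 11812788 in replicate 2 had folds of 3.26 and 2.36 and −log10 q values of 15.1 and 5.35. The summits were 43 bp apart, in the interior of the span, 1232 bp and 1275 bp from its nearer edge. A second replicate 1 peak inside the span (fold 2.20) had no replicate 2 partner.

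BR6OX1 (AT5G38970, on chromosome 5) encodes the paralogous C-6 oxidase, which stops at castasterone. The nearest replicate 1 summit was 6449 bp from its span. The nearest replicate 2 summit, of a peak with a fold of 1.85, was 1877 bp away and counted for the neighbouring gene AT5G38960. So of this pair of paralogs, the one that also makes brassinolide had peaks in both lists and the other had none, though nothing here tests that difference.

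ROT3 (AT4G36380, on chromosome 4) encodes CYP90C1, a side-chain hydroxylase best known for its effect on leaf length. It had 4 replicate 1 peaks, more than any other of the 10 genes, with folds of 1.96, 2.92, 2.32 and 2.14 in order of position. Over all genes 0.179% had at least 4 replicate 1 peaks and 1.1% had at least 3, as ROT3 and CPD did. The peak at 17191136 to 17191772 (fold 2.32) overlapped the only replicate 2 peak, at 17191184 to 17191422, which had a fold of 1.98 and a −log10 q of 2.43. The strongest replicate 1 peak, at 17189250 to 17189669, had no partner. The replicate 2 peak ranked 4396 by fold in its list, near the weak end. ROT3 has the longest span of the 10 genes (4980 bp), which gives summits more room. Its outermost replicate 1 summit, 356 bp outside the span, also counted for the neighbour AT4G36370.

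CYP90D1 (AT3G13730, on chromosome 3) encodes the close relative of ROT3 that shares its hydroxylation step. It was called in replicate 1 but not in replicate 2, through a summit 116 bp inside the span (fold 2.05) and another 530 bp outside it (fold 2.55). The nearest replicate 2 summit was 3714 bp away.

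DWF4 (AT3G50660, on chromosome 3) encodes CYP90B1, the side-chain hydroxylase held to be rate-limiting for the pathway. It was also called in replicate 1 but not in replicate 2, with one summit inside the span (fold 2.04) and one 488 bp outside it (fold 2.33). Both peaks were in the weaker part of the list, at ranks 8786 and 6787 by fold. The nearest replicate 2 summit lay 2181 bp from the span.

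The genes of the 2 early reductases each had 1 replicate 1 peak at a gene edge, with a fold below the median of that list. DET2 (AT2G38050, on chromosome 2), the steroid reductase whose mutant is de-etiolated in darkness, had a summit 13 bp inside its span with a fold of 2.25 and a −log10 q of 3.89. That summit also counted for the phosphate transporter gene PHT4;2 (AT2G38060). DWF1 (AT3G19820, on chromosome 3), which makes the precursor campesterol, had a summit 46 bp outside its span with a fold of 2.46 and a −log10 q of 7.61. In replicate 2 the nearest summits were 14726 bp and 19836 bp away.

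BAS1 (AT2G26710, on chromosome 2) encodes CYP734A1, which inactivates brassinosteroids by hydroxylation. It had the highest fold of any replicate 1 peak at the 10 genes, 3.91, with a −log10 q of 19.9, at 11380137 to 11380540 and with its summit 124 bp outside the span. No replicate 2 peak overlapped it, and the nearest replicate 2 summit was 4276 bp from the gene. Of the 854 replicate 1 peaks with at least this fold, most of them stronger, 81.4% overlapped a replicate 2 peak. Of the 501 replicate 1 peaks nearest to the BAS1 peak in fold rank, 65.3% did. The BAS1 peak belonged to the minority without one. CYP72C1 (AT1G17060, on chromosome 1), whose overexpression lowers brassinosteroid levels, was 7436 bp from the nearest replicate 1 summit and 15403 bp from the nearest replicate 2 summit. The inactivation gene with a peak thus had a strong one in a single list, and the other had none nearby.

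**Figure D2:**
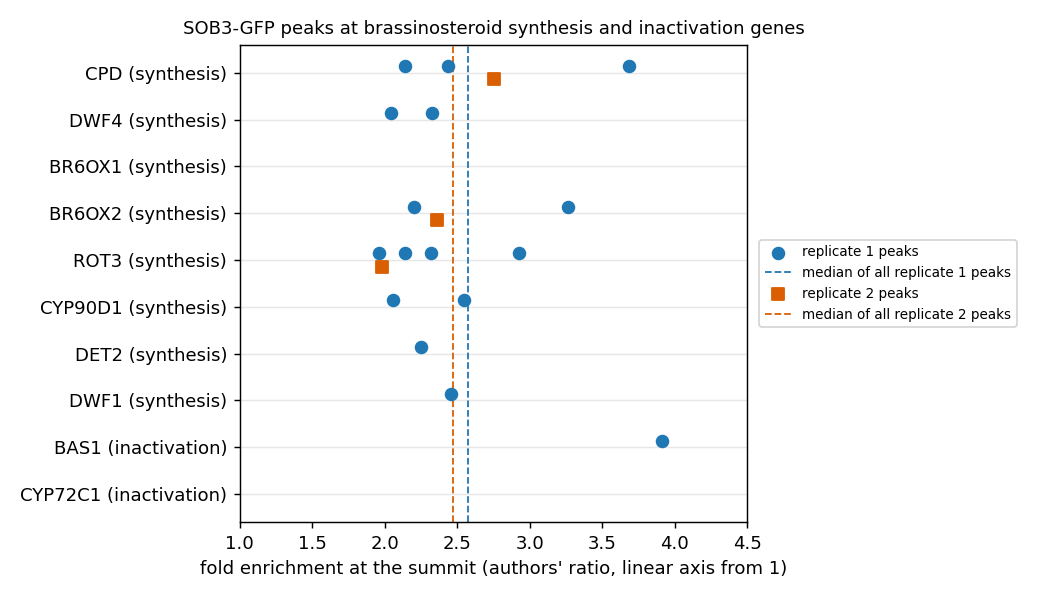
Each point is a peak called for a gene (rows), placed by the authors' fold enrichment on a linear axis, with circles for replicate 1, squares for replicate 2 and dashed lines at the median fold of each whole list. BAS1 has the highest replicate 1 fold (3.91) and no replicate 2 peak, while CPD, BR6OX2 and ROT3 have a peak in each list.

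By the highest replicate 1 peak, the order was BAS1, CPD, BR6OX2, ROT3, CYP90D1 (2.55), DWF1, DWF4 and DET2. Replicate 2 gave the same order to the 3 genes it called. At each of these 3 the highest fold differed between the lists by more than any step between neighbours in the replicate 1 order, with replicate 1 higher each time. The other 5 have no replicate 2 value, and the order was not tested. Replicate 1 was 1.34 times higher than replicate 2 at CPD, 1.38 times at BR6OX2 and 1.48 times at ROT3. For ROT3 the highest peaks of the 2 lists are different peaks. Over the 3213 genes called in both lists the median ratio was 1.16, and replicate 1 was higher in 72.8% of them. The median of the highest folds was 2.74 over the 8 genes called in replicate 1, against 2.66 over all called genes, and 2.36 over the 3 called in replicate 2, against 2.50. The median folds at these genes were thus close to those of all called genes in either list.

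The summits at the synthesis genes lay mostly inside the gene spans. In replicate 1, 11 of the 15 summits called for synthesis genes were inside, whereas 23.8% of all pairs of a gene and a called summit were. These summits are not independent, since CPD and ROT3 alone had 3 and 4 of the 15 peaks. Of the 15 peaks 3 overlapped a replicate 2 peak, against 38.5% of all replicate 1 peaks. That share depends on fold. Among replicate 1 peaks close in fold rank to the highest peak of a called synthesis gene, it ran from 24.1% (DET2) to 59.7% (CPD). Inside summits ranged from close to an edge, as at DET2 (13 bp), to far from it, as at ROT3 (1930 bp). The single BAS1 summit was outside. In replicate 2 all 3 summits were inside, where 19.9% of such pairs were. At CPD, BR6OX2 and ROT3 the summits of both overlapping peaks were inside. Over all genes, 11.3% had overlapping peaks of the 2 lists in their window, and of these genes 17.9% had such a pair inside the span. The spans of these genes are long, with 8 of the 10 from 3000 bp to below 5000 bp. Among all genes of that length 29.6% of the called summits were inside in replicate 1 and 24.3% in replicate 2, and 23% of the genes with overlapping peaks had both summits inside. Of all genes of that length 35% were called in replicate 1, 15.9% in replicate 2 and 14.1% in both lists. The gene table gives no strand, so which edge is the start of transcription was not used.

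**Figure D3:**
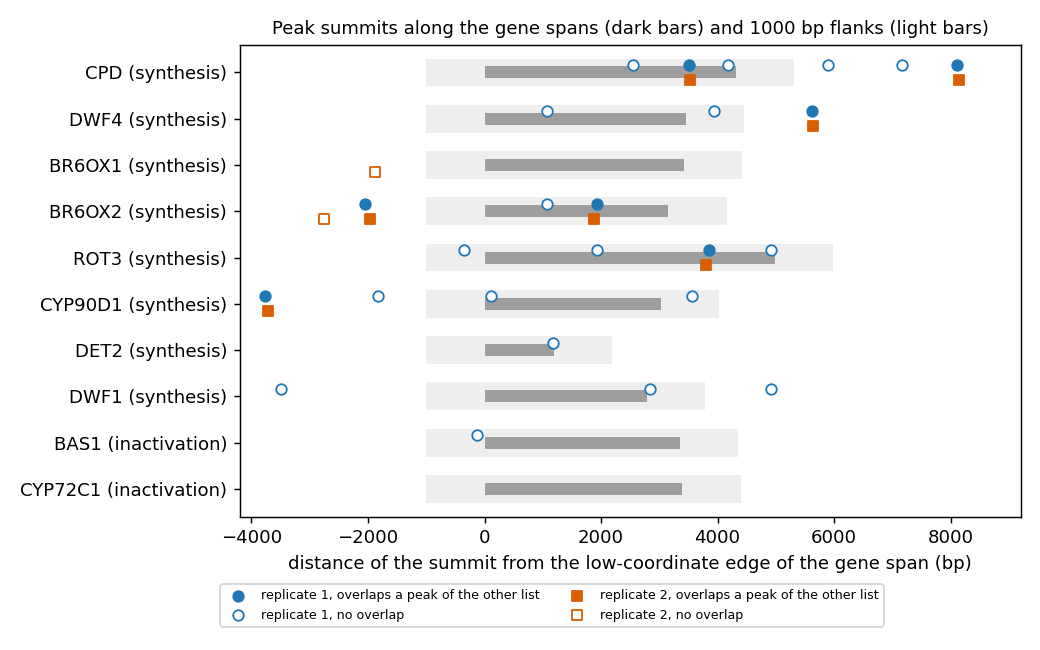
Summits are placed by their distance in bp from the low-coordinate edge of each gene span (dark bars, with the 1000 bp flanks as light bars), with circles for replicate 1 and squares for replicate 2, filled where the peak overlaps one of the other list. The filled pairs of CPD, BR6OX2 and ROT3 lie inside the dark bars, the open circle of BAS1 lies 124 bp outside its bar, and 4 more filled pairs lie beyond the flanks.

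The rest of the pathway was read from 3 further lists. Of 15 other genes of sterol and brassinosteroid synthesis, which act mainly in sterol synthesis, 4 were called in both lists and 10 in replicate 1. The shares of all genes were 11.7% and 28.7%. The 4 were the sterol methyltransferase genes SMT2 (AT1G20330, folds of 3.96 and 1.72) and SMT3 (AT1G76090, 2.65 and 2.28), the sterol C-14 reductase gene FK (AT3G52940, 2.61 and 1.90) and the desaturase gene STE1, also known as DWF7 (AT3G02580, 3.75 and 1.81). SMT2 and STE1 ranked 810 and 1044 by fold in replicate 1, but 4743 and 4673 of the 4788 peaks in replicate 2. Unlike CPD, BR6OX2 and ROT3, all 4 had their replicate 2 summit outside the span. The summits at FK also counted for its neighbour FBA8 (AT3G52930), and those at STE1 for MEE31 (AT3G02570).

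Of 7 other inactivation genes, which attach sugar, acyl or sulfate groups or reduce the hormone, none was called in both lists. UGT73C5 (AT2G36800, 2.89) and the sulfotransferase gene ST1 (AT2G03760, 2.78) were called in replicate 1 but not in replicate 2, and UGT73C6 (AT2G36790, 2.11) and ST4A (AT2G14920, 2.63) in replicate 2 but not in replicate 1. UGT73C5 and UGT73C6 are related neighbours, and their summits lay outside both spans at opposite ends of the pair. The UGT73C5 summit also counted for AT2G36810, the UGT73C6 summit for AT2G36780 and the ST1 summit for AT2G03750. With BAS1 and CYP72C1 this gives 0 of 9 inactivation genes in both lists. For genes of sterol and brassinosteroid synthesis it was 7 of 23, against 11.7% of all genes. At that share a count of 0 among so few genes is near the background. In replicate 1 the counts were 3 of 9 and 17 of 23, against 28.7% of all genes. In replicate 2 they were 2 of 9 and 7 of 23, against 13.7%. With flanks of 2000 bp the inactivation gene ST4A was called in both lists, where 16.7% of all genes were. The overlapping peaks beside ST4A had summits 1556 bp and 1536 bp from its span, with folds of 2.66 and 2.93. The median span was 1958 bp for the 9 inactivation genes and 2948 bp for the 23 synthesis genes. Among the members it was 3377 bp for the 2 inactivation genes and 3287 bp for the 8 synthesis genes. The difference in calls was not tested, nor was any link to span.

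Signalling genes and regulators of synthesis had 5 of 12 called in both lists and 9 in replicate 1, again against 11.7% and 28.7% of all genes. Their spans run from 1834 bp to 5292 bp, with a median of 4448.5 bp. Of all genes from 3000 bp to below 5000 bp 14.1% and 35% were called, but only 5 of the 12 have such a span, so these shares do not match the group in length. The 5 were the receptor gene BRI1 (AT4G39400, 3.44 and 2.92), the kinase gene BIN2 (AT4G18710, 3.95 and 3.19), the phosphatase gene BSU1 (AT1G03445, 3.10 and 2.83), CES (AT1G25330, 2.23 and 2.03), a bHLH factor known to activate CPD, and BRX (AT1G31880, 2.40 and 2.83), a growth regulator linked to CPD expression. The overlapping peaks at BSU1 also counted for AT1G03457. BRX alone among the members and other pathway genes called in both lists had the higher fold in replicate 2. The transcription factor genes BZR1 (AT1G75080, 3.33) and BES1 (AT1G19350, 3.26), which repress CPD and DWF4 when the hormone is abundant, were called in replicate 1 but not in replicate 2. Just beyond the window of BES1, overlapping peaks of both lists had a fold of 6.25 in replicate 1, rank 37 of its list and above that of the peak called for BES1, and of 2.92 in replicate 2. Their summits lay 1277 bp and 1318 bp from the span and counted for AT1G19340, and with flanks of 2000 bp BES1 was called in both lists.

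**Figure D4:**
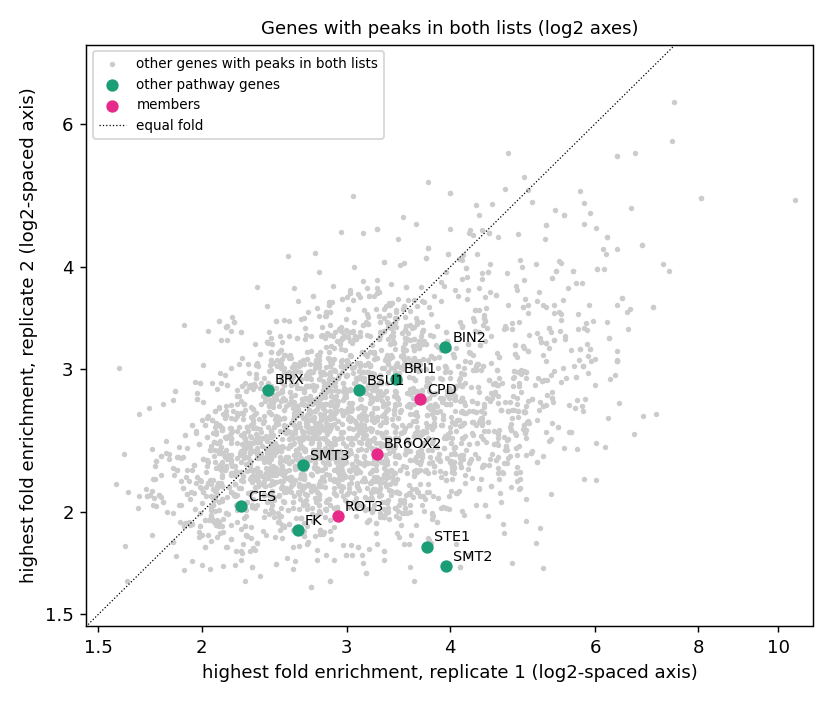
Each point is a protein-coding gene with a peak in both lists, placed by its highest fold in replicate 1 and in replicate 2 on log2-spaced axes, with the dotted line at equal fold. CPD, BR6OX2 and ROT3 lie below the line inside the cloud of other genes, SMT2 and STE1 lie at its lower edge, and BRX lies above the line.

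By distance in the log2 folds of the 2 replicates, the genes most like CPD were CAB2 (AT1G29920, folds of 3.67 and 2.75), a chlorophyll a/b-binding protein gene with near-identical copies, and the neighbours ABCI21 (AT5G44110) and CRA1 (AT5G44120), which were called through the same peaks (3.65 and 2.77). This likeness rests on 2 samples.

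The unequal length of the lists touches these counts. When the replicate 1 list was shortened to the 4788 peaks of highest −log10 q, 6 of the 10 genes were called in it, without DWF4 and DET2. Of all genes 14.9% were. CPD, BR6OX2 and ROT3 were still called in both. ROT3 was called there through its replicate 1 peak at 17189250 to 17189669 (−log10 q of 9.11), which overlaps no replicate 2 peak. Its overlapping peak, with a −log10 q of 5.07 against a list median of 7.27, was left out, so the shared ROT3 site was lost. With peaks of −log10 q of at least 10, BAS1, CPD and BR6OX2 were called in replicate 1, where 10.4% of all genes were. None of the 10 was called in replicate 2, where 2.39% of all genes were, or in both lists, where 1.86% were.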

How the data were processed

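The peak lists of 2 SOB3-GFP ChIP replicates were used, and the input library was not analysed here. Per the submitters' processing notes, bcl2fastq, Bowtie 0.12.9, MACS2 and the build TAIR10 were used. The version of MACS2, its control and its threshold are not stated in the sources at hand. Peaks are numbered per replicate in the deposited name column, so they were called per replicate. The authors' fold enrichment is a ratio of ChIP to control at the summit. The deposited −log10 p and −log10 q values come from the same caller, with a lowest −log10 q of 1.33 and 1.30. The deposited score is the whole part of 10 times −log10 q and was not used.

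Gene spans came from an NCBI RefSeq table of TAIR10.1, taken to share TAIR10 coordinates on chromosomes 1 to 5, and none of its coordinates are printed. All 44 listed loci matched. Counts were made with Python 3.11.15 and pandas 2.3.3, and the calls were tested on simulated peaks. The 10 genes are always named, with other pathway genes called in both lists and genes that share a summit called for one of the 10. Single-list pathway genes named in the text (UGT73C5, UGT73C6, ST1, ST4A, BZR1 and BES1), and genes that share their or other pathway genes' summits, were chosen after their values were seen. The members and lists were chosen with earlier results of these data known, and some of the pathway genes had been tested in such a list. No set test was made. Promoter and protein sequences were not used here.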

Additional observations from a re-analysis of the deposited data

Results flagged for a closer look

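Beyond the 1000 bp flanks, 4 of the 10 genes had overlapping peaks of both lists with summits within 4000 bp, a limit chosen after seeing the data. Over all protein-coding genes 16.5% had such a region. They are listed because the counts above do not use them.

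Beside DWF4, which had no replicate 2 peak in its window, peaks at chromosome 3, 18819426 to 18819867, had folds of 3.34 and 2.17, with summits 2171 bp and 2181 bp from the span, and DWF4 was the nearest protein-coding gene. This replicate 1 peak was stronger than either peak called for DWF4. Beside BR6OX2, peaks at chromosome 3, 11808481 to 11808996, had folds of 2.89 and 2.90, with BR6OX2 as the nearest protein-coding gene. Beside CYP90D1, peaks at chromosome 3, 4493985 to 4494304 (2.66 and 3.04), were nearest to PRA1.F4 (AT3G13710). Beside CPD, peaks at chromosome 5, 1710623 to 1711003 (2.94 and 2.14), were nearest to ATE1 (AT5G05700).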

How the results depend on the processing

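Of 51 recomputed counts under 10 settings, 40 stayed within 1.5 times the reported count and 11 did not. This tally does not measure stability. The synthesis counts repeat the member counts except without replicate 2, and most inactivation counts started and stayed at 0. A fall from 3 to 2 members, as when ROT3 was lost, counted as within the limit. With −log10 q of at least 10, the members called in both lists went from 3 to 0, the synthesis members from 3 to 0, those in replicate 1 from 8 to 3, those in replicate 2 from 3 to 0, and the other pathway genes in both lists from 9 to 2. With −log10 q of at least 5 the other pathway genes went to 4. With flanks of 500 bp they also went to 4, since at the 5 genes lost at least the replicate 2 summit lay farther out. The share of all genes called in both lists fell too, from 11.7% to 7.1% and 8.05%. With flanks of 2000 bp 13 of the 34 other pathway genes were called in both lists, where 16.7% of all genes were. Leaving out each replicate in turn gave ranges of 3 to 8 members, 3 to 7 synthesis members, 0 to 1 inactivation members and 11 to 21 other pathway genes, the higher value each time without replicate 2. ROT3 left the genes called in both lists when peaks had to overlap by 50% of each, and with −log10 q of at least 5. With flanks of 2000 bp BR6OX1 was called in replicate 2. The alternative with the upstream side alone was not run, since the gene table has no strand. No paired analysis was possible because the study has 1 group with peak lists. Differences between lists of such unequal length and unknown depth limit every statement on peaks found in replicate 1 but not in replicate 2.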
